A study of Mus musculus with 17 samples.

Results

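The SLAM family receptors Slamf1, Cd48, Cd244, Ly9, Slamf6, Slamf7, Slamf8 and Slamf9 were read in 6 mouse bone marrow populations by every non-control probe that carries one of these gene names on the array, which gave 14 of 41174 probes and 8 of 28090 gene names. Bone marrow of female C57Bl/6 mice aged 6 to 8 weeks was depleted of cells bearing B220, CD3, Gr-1 or Ter119, enriched for c-kit, and sorted by surface antigens. Long-term hematopoietic stem cells (LT-HSC) were Lin-, c-kit+, Sca-1+, CD34- and Flt3-, short-term hematopoietic stem cells (ST-HSC) were CD34+ and Flt3-, and multipotent progenitors (MPP) were CD34+ and Flt3+. Common myeloid progenitors (CMP), granulocyte-monocyte progenitors (GMP) and megakaryocyte-erythroid progenitors (MEP) were Lin-, c-kit+ and Sca-1-, with CD34 and the Fcγ receptor both intermediate in CMP, both present in GMP and both absent in MEP. LT-HSC, ST-HSC and MPP are called the HSC subsets here, and CMP, GMP and MEP the myeloid populations. No SLAM antigen was used in either sort, so the gates did not select on these receptors directly. No population was treated or genetically altered. Each replicate sample was RNA from a pool of mice, and for 1 of the 2 LT-HSC arrays the labels name replicates 2 and 3 together. Every other population had 3 arrays.

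SLAM receptors are immunoglobulin-type surface proteins of blood cells. Most bind the same receptor on a neighboring cell, while Cd244 (2B4) binds Cd48. Most carry an immunoreceptor tyrosine-based switch motif in the cytoplasmic tail, which binds the small adaptors SAP (Sh2d1a) and EAT-2 (Sh2d1b1) and so recruits kinases or phosphatases, whereas Cd48 is held by a lipid anchor without a tail. In mouse bone marrow the surface proteins form the SLAM code, in which stem cells carry CD150 (Slamf1) without CD48 or CD244, multipotent progenitors gain CD244, and most restricted progenitors carry CD48 and CD244 without CD150. The populations here were divided by CD34 and Flt3 instead, and the arrays read mRNA, so the comparison below is of the transcripts of these 3 receptors with populations sorted on other antigens.

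The probe sequences of the code receptors are shown because the probes of Slamf1 and of Cd244 did not all read alike. The 2 Slamf1 probes lie on chromosome 1 of mm9, plus strand. A_52_P158959 is spread across an intron (chr1:173718133-173722451), and A_52_P550173 lies downstream of it (chr1:173730343-173730402). Of the 3 Cd244 probes, A_52_P541344 also spans an intron (chr1:173507474-173508000). It holds codons that match the switch motif, printed in capitals. Probes that cross an intron are printed whole and the others by their first 30 bases, 5′ to 3′.
Slamf1 A_52_P158959: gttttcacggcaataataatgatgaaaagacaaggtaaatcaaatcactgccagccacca
Slamf1 A_52_P550173: ttttagagcctcttatgcttcaaacaacag
Cd244 A_52_P541344: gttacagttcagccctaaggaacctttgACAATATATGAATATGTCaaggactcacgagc
Cd244 A_51_P205209: tctgtatgtgtctgtggaccagcttctagg
Cd48 A_51_P362029: ggacaaaggaaaatgtgttactgaacgtct
The switch motif was searched as 18 bases coding for threonine, any residue, tyrosine, any 2 residues and then valine or isoleucine, on the probe strand and in a frame without a stop codon. It was found in 1 of the 14 SLAM probes and in 188 of the 41174 probes of the array, or 0.457%. A probe without it says only that these codons are not in its 60 bases. No annotation of mm9 was used, so which exon or untranslated region each probe lies in is not given. In the order of protein-coding genes in RefSeq (GRCm38), Cd244 (there Cd244a), Ly9, Slamf7 and Cd48 are direct neighbors, Slamf1 follows after 1 other gene, and Cd84 and then Slamf6 come directly after it. Slamf9 follows after 14 further genes and Slamf8 after 4 more.

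All values are log2 intensities, quantile normalized over the 17 arrays, and a difference of 1 is a 2-fold change. A spot is called well above background by the scanner software, and where a probe was so on no array of a population only a bound on its fold is given, against the higher, on each array, of the probe's own signal and the lowest signal called well above background. Where the probe's own signal was the higher, the bound is the same number as the fitted fold. An adjusted p printed beside a bound tests the fitted difference and not the bound. The share of an array's spots well above background ranged from 41.4% to 70.1%, and the unnumbered LT-HSC array was the dimmest, with a 75th percentile of 53.1 intensity units against at least 243.3 on the others. The arrays were scanned in 3 periods. Period 1 held replicates 1 and 2 of CMP, GMP and MEP, period 2 the unnumbered array of every population except LT-HSC, and period 3 both LT-HSC arrays with replicates 2 and 3 of ST-HSC and MPP. HSC subsets and myeloid populations therefore share only period 2, and both LT-HSC arrays sat alone on 1 slide. The share of spots well above background was 66.2% to 70.1% on the period 3 arrays of ST-HSC and MPP. It was at most 59.4% on any other array. Slamf7 A_52_P429609 was well above background at 2.82 on ST-HSC replicate 2 and not at 3.49 on the unnumbered GMP array. Being well above background therefore does not by itself rank levels between populations. Among the sort markers, Cd34 mRNA was lowest in MEP at 9.80 and highest in MPP at 16.64, but 14.96 in LT-HSC, sorted as CD34-, and 14.29 in GMP, sorted as CD34+, while Fcgr3 was highest in GMP at 13.61, and Flt3 was highest in MPP at 9.93. Flt3 was 8.24 in LT-HSC and 6.86 in ST-HSC although both were sorted as Flt3-. Ly6a, which encodes Sca-1, was 9.71 in GMP, sorted as Sca-1-, and 8.88 in ST-HSC, sorted as Sca-1+. The 5 HSC markers (Procr, Hlf, Fgd5, Esam1, Tek) averaged 9.10 to 9.52 on the LT-HSC arrays, 9.01 to 9.14 in ST-HSC, 8.18 to 8.83 in MPP and 4.52 to 4.70 in MEP. In these bulk samples, fewer cells of a type and less RNA per cell cannot be told apart.

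Over the 6 populations, 12 of the 14 probes differed by the F-test of limma at an adjusted p under 0.05, with at least 1 probe of each of the 8 genes, where 40.6% of all probes were called. The exceptions were Slamf1 A_52_P158959, with an adjusted p of 0.311, and Slamf6 A_52_P507578, with an adjusted p of 0.0528. Slamf1 A_52_P158959 was well above background on 2 of 17 arrays, replicates 2 and 3 of ST-HSC, so it bounds little. The probes of Cd48, Cd244 A_51_P205209 and Ly9 were well above background on all 17 arrays, and the remaining probes on 7 to 16.

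Slamf1, the receptor that marks stem cells in the code, was measured well above background in LT-HSC, ST-HSC and CMP and on no array of MPP, GMP or MEP. By A_52_P550173 it read 6.63 and 5.40 on the 2 LT-HSC arrays, the second of which, the dim array, was not well above background. ST-HSC read 5.90, 6.29 and 5.99, and CMP 5.37, 5.56 and 6.23. These 8 arrays all lay above every array of the other populations, and the means of LT-HSC (6.02 ± 0.87, SD, n = 2), ST-HSC (6.06 ± 0.20, n = 3) and CMP (5.72 ± 0.45, n = 3) overlapped in their arrays. MPP read 1.75, 2.32 and 1.84, GMP 2.00, 1.97 and 1.88, and MEP 2.07, 3.55 and 4.03. None of these 9 spots was well above background, so the order among MPP, GMP and MEP has no meaning for the transcript. ST-HSC were at least 10.4-fold above MPP (limma adjusted p = 0.000282), and LT-HSC at least 10.1-fold (adjusted p = 0.000323). CMP were at least 5.66-fold above GMP (adjusted p = 0.000221) and at least 2.94-fold above MEP (adjusted p = 0.00111). LT-HSC and ST-HSC differed by -0.04, with a 95% interval of -1.10 to 1.02, so these arrays leave room for a difference either way. The other Slamf1 probe called none of these differences. The sizes depend on how the background was treated, and the bounds hold for the background-subtracted signals used here. The fitted difference between ST-HSC and MPP, 4.08 but no measured size since MPP was not well above background, was 0.82 with normexp background correction, whose offset compresses dim probes, and 1.39 in the authors' table, with adjusted p of 0.000311 and 0.000600. The differences between CMP and GMP (0.69 and 1.19) and between CMP and MEP (0.49 and 0.90) shrank likewise and kept their calls.

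The transcripts whose level over the 17 arrays was most like that of Slamf1, among 19355 genes, were Col18a1 (Pearson r of 0.91), Gp9 (0.90) and Apoe (0.88). All had their highest mean in ST-HSC, and the r is a description over arrays that share populations and scanning periods. Gp9 encodes a platelet surface glycoprotein and is 1 of the 5 megakaryocyte markers (Pf4, Itga2b, Gp9, Gp1ba, Ppbp). These averaged 10.31 to 10.45 on the ST-HSC arrays, 10.07 to 11.22 in CMP and 8.56 to 8.84 in LT-HSC, against 6.45 to 7.34 in MPP and 7.19 to 7.93 in MEP. In GMP they averaged 8.32 to 9.24, about the LT-HSC range, while Slamf1 was at background there. The part of these cells in the level of Slamf1 was not tested.

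**Figure D1:**
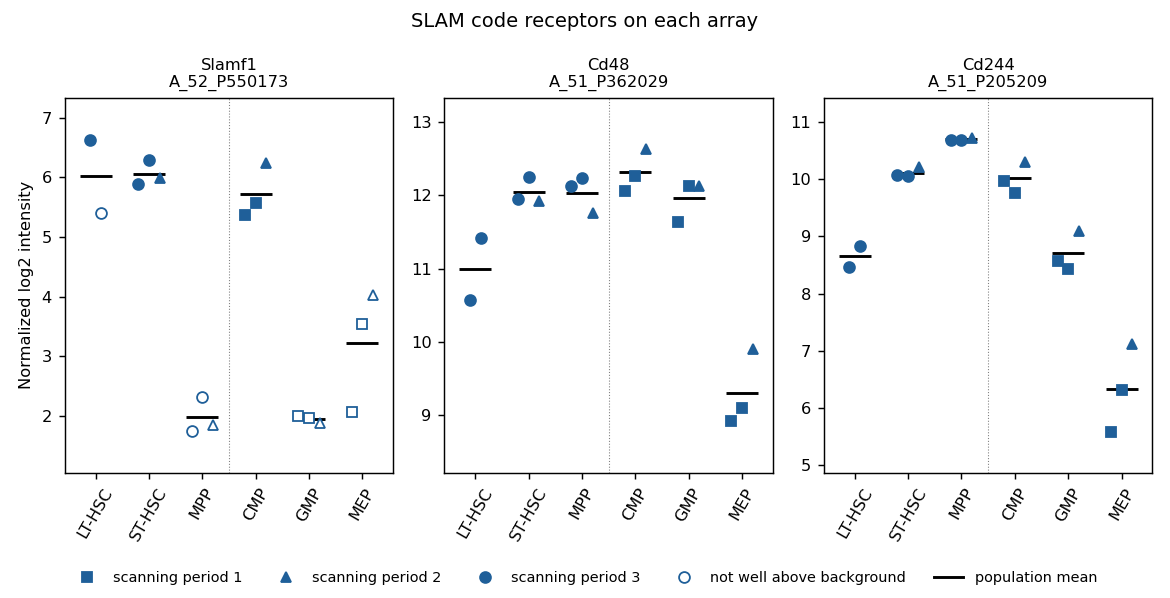
Normalized log2 intensity of 1 probe each of Slamf1, Cd48 and Cd244 (y axes, a separate scale per probe) on every array of the 6 populations (x axis), with the shape giving the scanning period, open symbols for spots not well above background, and bars for population means. Slamf1 falls into 3 populations near 6 and 3 at background, whereas Cd48 and Cd244 are on in all 6 and lowest in MEP.

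Cd48, the lipid-anchored ligand of Cd244, was well above background in all 6 populations, so at the mRNA level no population was without it. By A_51_P362029 it read 10.57 and 11.42 in LT-HSC. ST-HSC read 11.96, 12.25 and 11.92, MPP 12.12, 12.23 and 11.76, CMP 12.07, 12.26 and 12.63, and GMP 11.64, 12.12 and 12.12. MEP were lowest, at 8.92, 9.10 and 9.90. CMP, ST-HSC, MPP and GMP overlapped in their arrays, and both LT-HSC arrays lay below all of these and above all MEP arrays. The direction of the stem cell difference was that of the code's CD48, but its size was 1.05 log2 units below ST-HSC (95% interval of -1.74 to -0.36, adjusted p = 0.0947) and 1.05 below MPP (adjusted p = 0.0683), and neither passed the test. The other probe, A_52_P460230, gave 1.17 below ST-HSC (adjusted p = 0.117) and 1.19 below MPP (adjusted p = 0.0789). With the scanning period in the fit, both probes passed, at -1.15 (adjusted p = 0.0227) and -1.28 (adjusted p = 0.0343) against ST-HSC and at -1.15 (adjusted p = 0.0165) and -1.31 (adjusted p = 0.0228) against MPP. A_52_P460230 also passed against MPP with normexp background correction (-1.08, adjusted p = 0.0256) and in the authors' table (-1.20, adjusted p = 0.0279). Within period 3 alone A_51_P362029 differed by -1.11 from ST-HSC and by -1.18 from MPP. The fall to MEP was the larger change, 8.07-fold from CMP (adjusted p = 7.20e-06) and 6.30-fold from GMP (adjusted p = 1.59e-05) by A_51_P362029.

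Cd244, the receptor for Cd48, was lower in LT-HSC than in MPP by all 3 probes, and by its brightest probe it was highest in MPP and lowest in MEP. By this probe, A_51_P205209, it read 8.46 and 8.84 in LT-HSC, 10.08, 10.06 and 10.204 in ST-HSC, and 10.68, 10.69 and 10.72 in MPP. The 3 HSC subsets did not overlap. CMP read 9.97, 9.76 and 10.31, GMP 8.58, 8.43 and 9.10, and MEP 5.57, 6.31 and 7.12. In the order MPP, ST-HSC, CMP, GMP, LT-HSC and MEP, ST-HSC overlapped CMP and GMP overlapped LT-HSC, while the other neighbors were apart. LT-HSC were 4.14-fold below MPP (adjusted p = 0.00344) and 2.76-fold below ST-HSC (adjusted p = 0.0384), and ST-HSC differed from MPP by -0.58 (95% interval of -1.25 to 0.09, adjusted p = 0.716). The call against ST-HSC was lost when any 1 of 12 arrays was left out, LT-HSC, ST-HSC and others alike, at differences of -1.66 to -1.28 and adjusted p of 0.0502 to 0.103, and also with scaling to the 75th percentile (adjusted p = 0.0696) or slide as a random block (adjusted p = 0.149). The call against MPP stayed with every array left out and under each alternative.

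The Cd244 probe that holds the switch motif codons, A_52_P541344, was also lower in LT-HSC than in ST-HSC and MPP. It read 4.09 and 5.46 in LT-HSC, neither well above background, 6.13, 6.52 and 6.64 in ST-HSC, and 6.70, 7.34 and 7.05 in MPP. LT-HSC were at least 4.78-fold below MPP (adjusted p = 0.00158) and at least 3.15-fold below ST-HSC (adjusted p = 0.0189), the latter call being lost without LT-HSC replicate 2-3 (-0.97, adjusted p = 0.0617) or ST-HSC replicate 3 (-1.65, adjusted p = 0.0605). It was also lost with normexp background correction (-0.42, adjusted p = 0.146), scaling to the 75th percentile (adjusted p = 0.0696) or slide as a random block (adjusted p = 0.136). In contrast to the brighter probe, its highest mean was in CMP, at 7.47, 7.47 and 7.32, and no MEP array was well above background. The third probe, A_52_P26766, was the dimmest, also had its highest mean in CMP (5.13 ± 0.24, SD, n = 3), and was well above background on no array of LT-HSC, GMP or MEP. It was lower in LT-HSC than in MPP (at least 1.25-fold, adjusted p = 0.00950), a call lost without the unnumbered LT-HSC array (-1.90, adjusted p = 0.0906), with normexp background correction (-0.22, adjusted p = 0.117) or in the authors' table (-0.32, adjusted p = 0.207). Its difference between LT-HSC and ST-HSC of -1.26 was not called (adjusted p = 0.122) and was -0.10 with normexp background correction. With scaling to the 75th percentile its highest mean was in MPP, and the arrays of CMP and MPP overlapped at A_52_P541344, so the probes do not settle whether MPP or CMP held the highest level. Between LT-HSC and MPP, normexp background correction gave -1.74 for the bright A_51_P205209 and -0.70 for A_52_P541344, both still called.

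Ly9 (CD229), a homophilic receptor best known on lymphocytes, had higher means in MPP, CMP and GMP than in LT-HSC and ST-HSC, and its lowest in MEP. CMP and GMP were not tested against LT-HSC or ST-HSC. The HSC subsets and the myeloid populations as a whole differed by -0.12 (limma adjusted p = 0.473). It read 7.86 and 7.28 in LT-HSC, 7.52, 7.62 and 7.78 in ST-HSC, and 8.42, 8.76 and 8.49 in MPP. CMP read 8.95, 8.95 and 8.44, GMP 8.79, 9.10 and 8.62, and MEP 6.43, 6.76 and 6.34. GMP, CMP and MPP overlapped, LT-HSC and ST-HSC overlapped, and the 2 sets were apart from each other and from MEP. MPP were 1.98-fold above LT-HSC (adjusted p = 0.0241) and 1.89-fold above ST-HSC (adjusted p = 0.0380). The first call was lost without the unnumbered LT-HSC array (-0.70, adjusted p = 0.255) or MPP replicate 3 (-0.89, adjusted p = 0.0871), and the second without any 1 of 10 arrays (differences of -0.99 to -0.82, adjusted p of 0.0515 to 0.170). Slide as a random block ended the first (adjusted p = 0.0543), and normexp background correction (-0.64, adjusted p = 0.0542) and scaling to the 75th percentile (adjusted p = 0.132) the second. CMP and GMP were 4.81-fold (adjusted p = 5.29e-06) and 5.004-fold (adjusted p = 3.04e-06) above MEP.

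Slamf7 (CRACC, CD319), a receptor of natural killer cells and plasma cells that signals through EAT-2, was highest in LT-HSC and lower in ST-HSC than in MPP. By A_52_P261262 it read 9.03 and 8.37 in LT-HSC, 3.58, 4.29 and 5.24 in ST-HSC, and 6.25, 6.77 and 6.29 in MPP. CMP read 5.96, 6.47 and 5.61, while GMP (4.602, 4.09 and 4.02) was well above background on 1 array and MEP (4.42, 4.36 and 3.92) on none. No LT-HSC array overlapped another population. LT-HSC were 20.2-fold above ST-HSC (adjusted p = 9.50e-05) and 4.81-fold above MPP (adjusted p = 0.00589), and ST-HSC were 4.19-fold below MPP (adjusted p = 0.00926). The second probe, A_52_P429609, gave the same order of the 6 means, at 12.9-fold above ST-HSC (adjusted p = 0.00181) and a difference from MPP of 1.01 that was not called (adjusted p = 0.291). The difference between LT-HSC and ST-HSC stayed called at both probes with every array left out and under each alternative, and within period 3 it was 4.77 and 4.22 log2 units. ST-HSC and MPP differed by -1.05 and -1.23 within period 2 and by -2.58 and -3.41 within period 3, at A_52_P261262 and A_52_P429609 in turn. With normexp background correction the difference of A_52_P261262 between LT-HSC and ST-HSC was 2.06. The call between ST-HSC and MPP was lost for A_52_P261262 with scaling to the 75th percentile (-1.57, adjusted p = 0.0894) and for A_52_P429609 with normexp background correction (-0.67, adjusted p = 0.155), and the call of A_52_P261262 between LT-HSC and MPP with slide as a random block (2.04, adjusted p = 0.0535).

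Slamf6 (Ly108), a receptor of T, B and natural killer cells, was also higher in LT-HSC than in ST-HSC by 1 of its 2 probes. A_52_P45563, which spans an intron (chr1:173866817-173868145), read 6.21 and 6.86 in LT-HSC, 4.22, 3.25 and 4.24 in ST-HSC, and 5.32, 5.01 and 5.47 in MPP. CMP read 6.48, 6.31 and 6.02, GMP 4.93, 5.94 and 5.10, and no MEP array was well above background, nor were the unnumbered ST-HSC array and GMP replicate 1. LT-HSC were 6.22-fold above ST-HSC (adjusted p = 0.00127), called with every array left out and under each alternative (0.78 with normexp background correction), and their difference from MPP of 1.27 was not called (adjusted p = 0.0505) but passed in 4 of 7 alternatives, with normexp background correction (0.52, adjusted p = 0.0174), the authors' table (0.64, adjusted p = 0.0264), scanning period in the fit (1.40, adjusted p = 0.0242) and 1 probe per gene name (adjusted p = 0.0456). ST-HSC were 2.58-fold below MPP (adjusted p = 0.0481), a call lost without any 1 of 13 arrays (differences of -1.54 to -1.06, adjusted p of 0.0513 to 0.2005), with normexp background correction (-0.26, adjusted p = 0.406), with scaling to the 75th percentile (-1.01, adjusted p = 0.393), in the authors' table (-0.45, adjusted p = 0.155) or with the replicate number as a block (-1.43, adjusted p = 0.175). The other probe, A_52_P507578 (chr1:173873620-173873679), stayed between 3.18 and 6.28 on all arrays with its highest mean in MEP, and differed by 0.32 between LT-HSC and ST-HSC (95% interval of -0.78 to 1.42, adjusted p = 0.825). The 2 probes do not read the same pattern, so a level of the whole gene is not given.

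Slamf9, a short-tailed member without a switch motif known from myeloid and dendritic cells, fell stepwise from LT-HSC through ST-HSC to MPP. It read 10.07 and 8.87 in LT-HSC, 5.97, 8.08 and 8.13 in ST-HSC, and 4.68, 4.93 and 5.82 in MPP. The 3 subsets did not overlap, although ST-HSC replicate 2 lay closer to the highest MPP array than to the other ST-HSC arrays. GMP (4.62, 4.52 and 5.50), CMP (4.10, 4.13 and 4.49) and MEP (3.21, 2.84 and 3.03, none well above background) were lower in the mean than all HSC subsets, and replicate 1 of GMP and of CMP was not well above background. LT-HSC were 20.1-fold above MPP (adjusted p = 0.000759; a difference of 4.33, and of 2.495 with normexp background correction), while the difference from ST-HSC of 2.08 was not called (95% interval of 0.81 to 3.35, adjusted p = 0.0737) but passed with scanning period in the fit (2.43, adjusted p = 0.0201), with normexp background correction (1.44, adjusted p = 0.0281) and in the authors' table (1.74, adjusted p = 0.0356). ST-HSC were 4.76-fold above MPP (adjusted p = 0.0462), a call lost without any 1 of 13 arrays (differences of 1.87 to 2.24, adjusted p of 0.0510 to 0.214), with normexp background correction (1.05, adjusted p = 0.0877) or with the replicate number as a block (2.22, adjusted p = 0.103).

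Slamf8 (BLAME), the other short-tailed member, known from macrophages and dendritic cells, was highest in MPP. It read 9.11, 9.43 and 8.88 in MPP, 6.52 and 7.91 in LT-HSC, and 5.50, 7.32 and 7.51 in ST-HSC. CMP read 6.62, 6.94 and 6.67, GMP 5.82, 5.63 and 5.59, and MEP 3.69, 4.12 and 4.17, none of them well above background. LT-HSC, ST-HSC and CMP overlapped, the GMP arrays lay within the range of ST-HSC, and MPP and MEP each stood apart. MPP were 5.14-fold above ST-HSC (adjusted p = 0.0141), a call lost without MPP replicate 2 (-2.38, adjusted p = 0.0580) or MPP replicate 3 (-2.23, adjusted p = 0.0698) or with the replicate number as a block (-2.86, adjusted p = 0.0511), and 3.79-fold above LT-HSC (adjusted p = 0.0386), a call lost without any 1 of 11 arrays (differences of -2.05 to -1.23, adjusted p of 0.0502 to 0.197), with scanning period in the fit (-1.81, adjusted p = 0.0547) or with slide as a random block (adjusted p = 0.138). ST-HSC and MPP differed by -1.37 within period 2 and by -2.86 within period 3. Thus the 2 short-tailed members ran in opposite directions from ST-HSC to MPP, by -2.36 for Slamf8 and 2.25 for Slamf9.

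The mean levels of 3 lists of mature lymphocyte markers were also highest in LT-HSC, the population where Slamf6 A_52_P45563, Slamf7 and Slamf9 had their highest means. The 5 B cell markers averaged 8.49 to 9.03 on the LT-HSC arrays against at most 7.25 on any other array, the 6 T cell markers 6.42 on both against at most 6.08, and the 6 natural killer cell markers 5.40 to 5.78 against at most 4.81. In LT-HSC, 3 of 5 B cell, 4 of 6 T cell and 2 of 6 natural killer cell markers were well above background on both arrays. Ms4a1 (CD20) was at 9.49 in LT-HSC and at most 4.46 elsewhere. Other markers ran the other way, with Cd8a at 5.06 in LT-HSC and 7.75 in MPP, Cd5 at 7.95 and 8.59, and Prf1 lowest in LT-HSC at 2.33. Pax5, which defines B cells, and Ncr1, Prf1 and Eomes of natural killer cells were well above background on neither LT-HSC array. Pax5, Ncr1 and Eomes still had their highest means there, at 4.16, 4.11 and 4.38. The 6 mature neutrophil markers averaged 12.60 to 14.11 in LT-HSC and 11.93 to 13.52 in ST-HSC, against at most 12.48 in the other populations. For Slamf8, the 6 dendritic cell markers averaged 9.47 to 9.64 in MPP, 8.06 to 9.48 in LT-HSC and 7.49 to 8.19 in ST-HSC, and the 6 monocyte and macrophage markers were highest in GMP (9.58 to 10.07) and 7.69 to 7.86 in MPP. The part of such cells in these receptor levels was not tested.

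**Figure D2:**
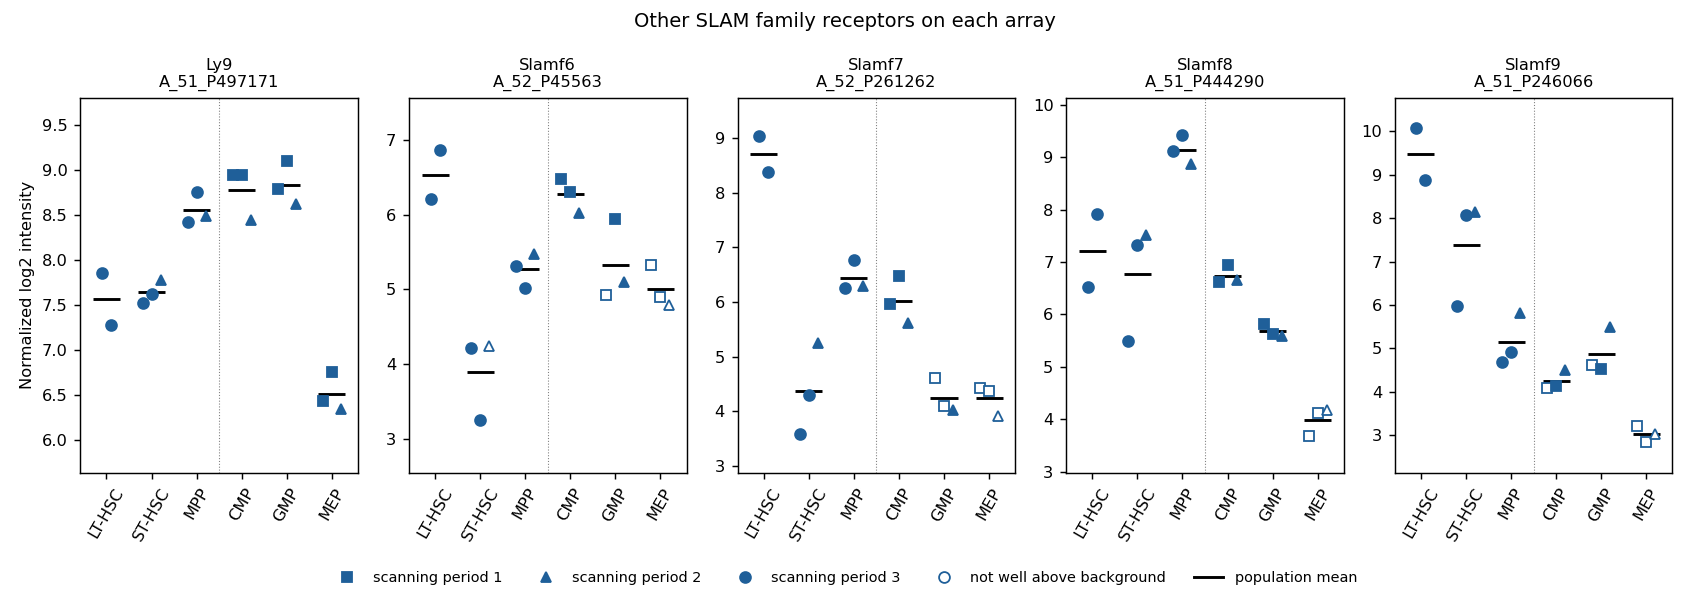
Normalized log2 intensity of 1 probe each of Ly9, Slamf6, Slamf7, Slamf8 and Slamf9 (y axes, a separate scale per probe) on every array of the 6 populations (x axis), drawn as in the plot of the code receptors. Slamf7 and Slamf9 are highest on both LT-HSC arrays, Slamf8 on the MPP arrays, and Ly9 is lowest in MEP.

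Between LT-HSC and ST-HSC, 5 of the 14 probes were called, 3 higher in LT-HSC (Slamf6 A_52_P45563 and both Slamf7 probes) and 2 lower (Cd244 A_51_P205209 and A_52_P541344). Over the array 3.34% of probes were called, and the median difference was -0.05 over the members and -0.06 over all probes. Between ST-HSC and MPP, 7 of 14 were called, with Slamf1 A_52_P550173 and Slamf9 higher in ST-HSC and Ly9, Slamf6 A_52_P45563, both Slamf7 probes and Slamf8 lower, where 2.02% of all probes were called. The members' median was -0.72 against -0.01 over all probes. Of these, Slamf1 alone kept its call with every array left out and under each alternative. Between LT-HSC and MPP, 8 of 14 were called, 3 higher in LT-HSC (Slamf1 A_52_P550173, Slamf7 A_52_P261262 and Slamf9) and 5 lower (the 3 Cd244 probes, Ly9 and Slamf8), where 7.26% of all probes were called. The 3 comparisons share their arrays in pairs, and LT-HSC stand on 2 arrays of 1 slide, so slide and population cannot be told apart there.

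**Figure D3:**
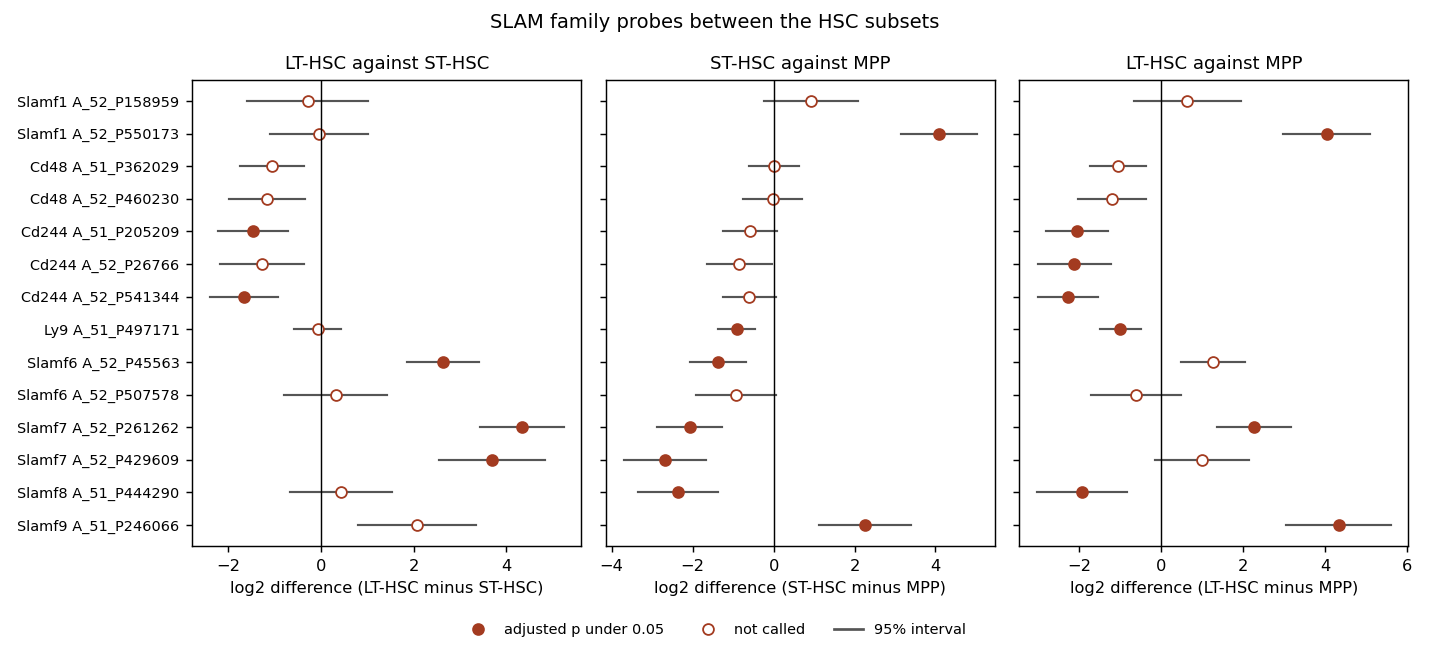
Log2 difference (x axes) of each of the 14 SLAM family probes (y axis) between LT-HSC and ST-HSC, ST-HSC and MPP, and LT-HSC and MPP, with 95% intervals as bars and filled points for an adjusted p under 0.05. Slamf1 A_52_P550173 is near 0 in the first comparison and near 4 in the other 2, while Cd244 lies below 0 throughout.

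Among the myeloid populations, every called SLAM probe was lower in MEP than in CMP or GMP, while Slamf6 A_52_P507578, not called, had its highest mean in MEP. Slamf1 A_52_P550173, well above background in neither GMP nor MEP, differed by -1.27 between them (adjusted p = 0.0664) and was called in 4 of 9 alternatives (adjusted p of 0.0456 to 0.0474). Without MEP replicate 1 it came to -1.89 (adjusted p = 0.00245), and it was called without either LT-HSC array. Between CMP and MEP, 11 of 14 probes were called and all 11 were higher in CMP, where 16.7% of all probes were called, and the members' median difference was 2.32 against -0.10 over all probes. The called probes were the 2 of Cd48, the 3 of Cd244, Ly9, the 2 of Slamf7, Slamf8, Slamf1 A_52_P550173 and Slamf6 A_52_P45563. Cd244 A_51_P205209 was 12.8-fold higher in CMP (adjusted p = 2.71e-06) and A_52_P541344 at least 8.66-fold (adjusted p = 5.73e-06). Slamf8 was at least 5.76-fold higher in CMP (adjusted p = 0.000716), Slamf7 at least 3.43-fold by A_52_P261262 (adjusted p = 0.00411), and Slamf6 A_52_P45563 at least 2.40-fold (adjusted p = 0.0148). With normexp background correction these differences lay below their bounds, at 1.22 log2 units for Cd244 A_52_P541344, 0.91 for Slamf8, 0.50 for Slamf7 A_52_P261262 and 0.39 for Slamf6 A_52_P45563, all still called. The Slamf6 call was lost without CMP replicate 1 or 2 or without MEP replicate 2 or the unnumbered MEP array, at differences of 1.14 to 1.23 and adjusted p of 0.0504 to 0.0621, and with the replicate number as a block (adjusted p = 0.101). The call of Slamf7 A_52_P429609 (at least 2.06-fold, adjusted p = 0.00690) was lost with normexp background correction (0.36, adjusted p = 0.327) and in the authors' table (0.64, adjusted p = 0.124). Within scanning periods 1 and 2 the difference between CMP and MEP was 3.15 and 2.73 for Cd48 A_51_P362029 and 3.93 and 3.19 for Cd244 A_51_P205209. The 5 mature erythroid markers averaged 10.21 to 11.54 on the MEP arrays against at most 9.501 elsewhere, and their part in the low receptor levels of MEP was not tested.

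Between GMP and MEP, 8 of 14 probes were called, all 8 higher in GMP, where 17.4% of all probes were called, and the median difference was 1.59 against -0.07 over all probes. They were the probes of Cd48, Cd244, Ly9, Slamf8 and Slamf9, including all probes of Cd48 and Cd244, with Cd244 A_51_P205209 at 5.16-fold (adjusted p = 8.84e-05) and Slamf9 at least 1.73-fold (adjusted p = 0.0257). The Slamf9 call was lost without the unnumbered GMP array or any 1 MEP array (differences of 1.52 to 1.95, adjusted p of 0.0513 to 0.112). The Slamf8 call (at least 2.76-fold, adjusted p = 0.0188) was lost without GMP replicate 1 or MEP replicate 1 (1.53 to 1.62, adjusted p of 0.0614 to 0.0715), and that of Cd244 A_52_P26766, well above background in neither population, without GMP replicate 1 or the unnumbered MEP array (1.26 to 1.39, adjusted p of 0.0503 to 0.0552). All 3 of these calls were also lost with normexp background correction, at 0.29 for Slamf9 (adjusted p = 0.661), 0.47 for Slamf8 (adjusted p = 0.238) and 0.17 for Cd244 A_52_P26766 (adjusted p = 0.128), and in the authors' table. The Slamf9 call was also lost with the replicate number as a block (1.54, adjusted p = 0.0891) and that of Cd244 A_52_P26766 with scaling to the 75th percentile (1.19, adjusted p = 0.0628). Slamf7 A_52_P261262 differed by 0.00 between GMP and MEP (95% interval of -0.80 to 0.81, adjusted p = 0.999), at levels near background in both.

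Between CMP and GMP, 4 of 14 probes were called and all 4 were higher in CMP, where 4.77% of all probes were called. They were Slamf1 A_52_P550173, given above, Cd244 A_51_P205209 (2.48-fold, adjusted p = 0.0269) and both Slamf7 probes (3.42-fold, adjusted p = 0.0133, and at least 3.01-fold, adjusted p = 0.0375). Slamf1 kept its call with every array left out. The Cd244 call was lost without CMP replicate 1, the unnumbered CMP array, or GMP replicate 1 or 2 (1.16 to 1.34, adjusted p of 0.0830 to 0.112), and with the replicate number as a block (1.37, adjusted p = 0.0694). The call of Slamf7 A_52_P261262 was lost without CMP replicate 2, GMP replicate 2 or the unnumbered GMP array (1.54 to 1.68, adjusted p of 0.0577 to 0.0705), and that of A_52_P429609 without any 1 of 10 arrays (1.79 to 1.97, adjusted p of 0.05003 to 0.132). With normexp background correction they were 0.49 (adjusted p = 0.0604) and 0.33 (adjusted p = 0.671), and A_52_P429609 was not called in the authors' table either (0.63, adjusted p = 0.288). Cd48 and Ly9 were not called, at 0.36 (95% interval of -0.26 to 0.98) and -0.06 (-0.51 to 0.39) for Cd48 A_51_P362029 and Ly9.

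**Figure D4:**
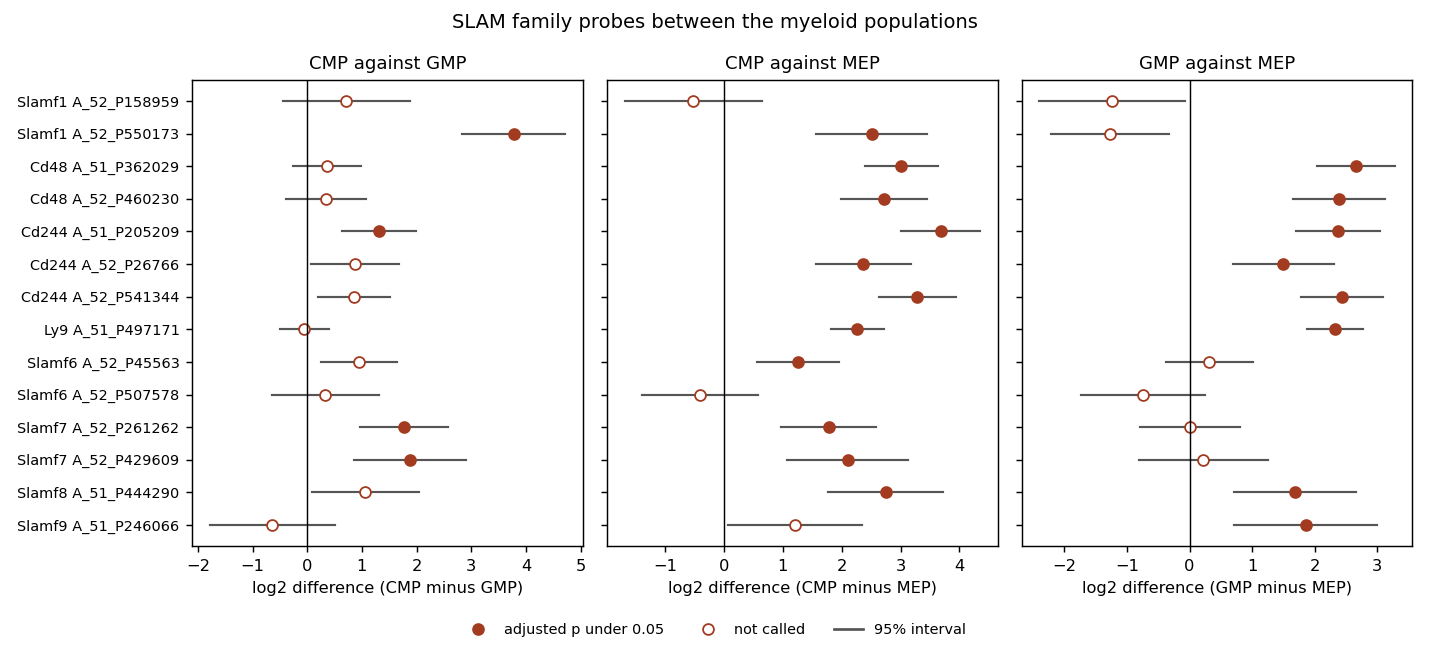
Log2 difference (x axes) of each of the 14 SLAM family probes (y axis) between CMP and GMP, CMP and MEP, and GMP and MEP, with 95% intervals as bars and filled points for an adjusted p under 0.05. All filled points lie above 0, 11 of them for CMP against MEP.

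Between the mean of the 3 HSC subsets and that of the 3 myeloid populations, 8 of 14 probes were called, 7 higher in the HSC subsets and 1 lower, where 41.3% of all probes were called. The higher probes were Slamf1 A_52_P550173 (1.05, adjusted p = 0.00577), Cd48 A_51_P362029 (0.50, adjusted p = 0.0341), Cd244 A_51_P205209 (1.47, adjusted p = 3.88e-05), Slamf7 A_52_P261262 and A_52_P429609 (1.68 and 2.02), Slamf8 (2.24) and Slamf9 (3.29, adjusted p = 4.80e-06), and the lower one was Slamf6 A_52_P507578 (-0.98, adjusted p = 0.0114). The other Cd244 probes were not called, at -0.41 (limma adjusted p = 0.163) for A_52_P26766 and 0.04 (adjusted p = 0.880) for A_52_P541344. Cd48 A_52_P460230 was not called either (0.42, adjusted p = 0.119). No member separated the 8 arrays of the HSC subsets from the 9 of the myeloid populations, as 8.05% of all probes did. With the scanning period in the fit, Slamf9 (3.82, adjusted p = 0.00138), Slamf8 (2.51, adjusted p = 0.0146), Slamf7 (2.41 and 2.21) and Cd244 A_51_P205209 (1.04, adjusted p = 0.0160) kept their calls. Slamf1 fell to 0.52 (adjusted p = 0.567), Slamf6 A_52_P507578 came to -0.74 (adjusted p = 0.312), and Cd48 A_51_P362029 turned to -0.091 (adjusted p = 0.888). On the period 2 arrays alone, which hold no LT-HSC, the differences were 2.64 for Slamf9, 2.72 for Slamf8, 1.25 and 1.37 for Slamf7, 1.62 for Cd244 A_51_P205209, 0.29 for Cd48 A_51_P362029 and -0.13 for Slamf1 A_52_P550173. The Cd48 call was also lost without any 1 of 9 arrays (0.36 to 0.49, adjusted p of 0.0582 to 0.127), with normexp background correction (adjusted p = 0.0902), scaling to the 75th percentile (adjusted p = 0.104), the authors' table (adjusted p = 0.0603) or slide as a random block (adjusted p = 0.290). Slamf6 A_52_P507578 came to -0.19 (adjusted p = 0.667) with scaling to the 75th percentile. Without both LT-HSC arrays, Slamf1 came to 0.39 (adjusted p = 0.280) and Slamf7 A_52_P261262 to 0.59 (adjusted p = 0.0704). Over the numbered arrays, which also leave out LT-HSC, and with the replicate number as a block, Slamf7 A_52_P261262 turned to -0.060 (adjusted p = 0.867), Slamf1 A_52_P550173 came to 0.13 (adjusted p = 0.809) and Slamf6 A_52_P507578 to -0.66 (adjusted p = 0.259). The Slamf1 call was also lost with slide as a random block (0.88, adjusted p = 0.0580). Slamf1 was present in populations on both sides of this contrast and below detection in others on both sides. The differences of Slamf1, Slamf7, Slamf8 and Slamf9 average in populations where no array was well above background, so they are not measured sizes. These populations were MEP for all of them, MPP and GMP also for Slamf1 A_52_P550173, and GMP also for Slamf7 A_52_P429609.

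**Figure D5:**
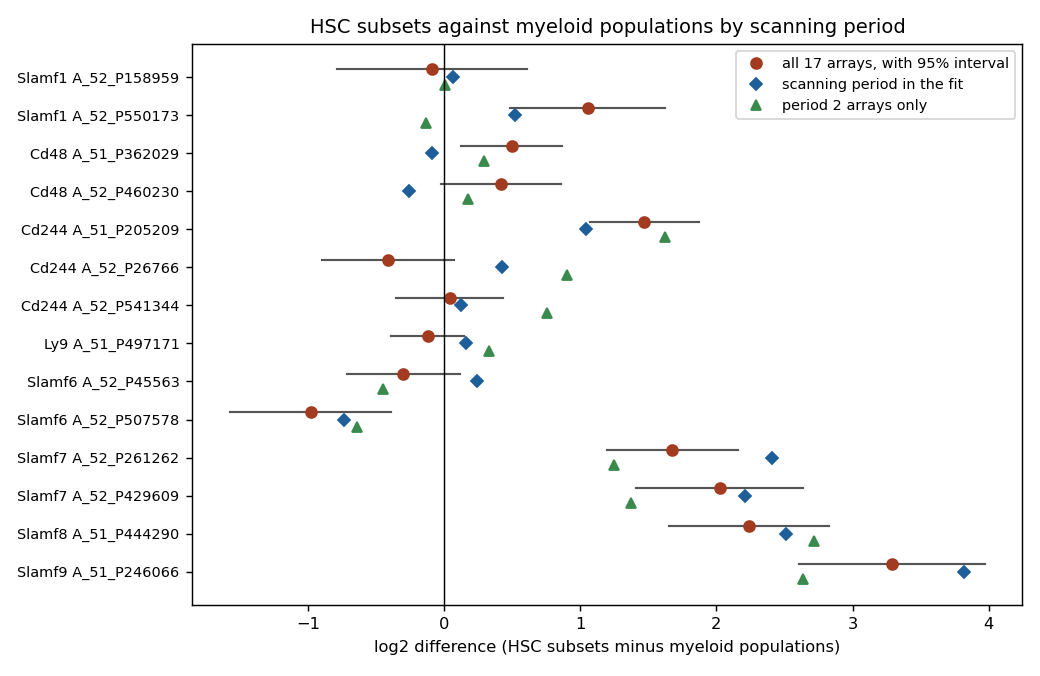
Log2 difference between HSC subsets and myeloid populations (x axis) of each of the 14 SLAM family probes (y axis), over all 17 arrays with 95% intervals, with scanning period in the fit, and on the period 2 arrays alone. Slamf7, Slamf8, Slamf9 and Cd244 A_51_P205209 lie above 0 in all 3, while Cd48 A_51_P362029 and Slamf1 A_52_P550173 each cross it once.

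Of the SLAM signaling genes, 17 on the array were counted by their brightest probe, comprising the receptor Cd84, the ligand Cd2, the adaptors, 6 kinases, 3 phosphatases and 4 docking and exchange proteins. Between HSC subsets and myeloid populations, 9 were higher, 4 lower and 4 not called, where 41.3% of all probes were called. The 3 largest called differences were of Lck (2.34, adjusted p = 1.22e-07), Dok2 (2.12, adjusted p = 2.02e-07) and Fyn (1.73, adjusted p = 6.63e-06), of which Lck and Fyn are Src-family kinases, Fyn the one that SAP recruits, and Dok2 is a docking protein. The brighter of the 2 probes of Sh2d1a, which encodes SAP, was well above background on 0 of 17 arrays, so this probe gives no level. The other probe was not read. Sh2d1b1, which encodes EAT-2, was well above background on every array of ST-HSC, MPP, CMP and GMP and on none of LT-HSC or MEP, with means of 4.91, 3.94, 5.91, 6.62, 3.71 and 3.65 in ST-HSC, MPP, CMP, GMP, LT-HSC and MEP. LT-HSC differed by -0.23 from MPP (adjusted p = 0.894) and by -1.20 from ST-HSC (adjusted p = 0.385). A lower level in LT-HSC than in MPP or ST-HSC was therefore not shown. Slamf7, a receptor that binds EAT-2, was highest in LT-HSC and close to background in GMP, so the highest means of Slamf7 and Sh2d1b1 lay in different populations.

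Cd84, the SLAM receptor next to Slamf1 on the chromosome, had means of 8.23, 8.65 and 8.55 in LT-HSC, ST-HSC and MPP and 8.03, 8.38 and 6.94 in CMP, GMP and MEP. It was higher in CMP (1.09, adjusted p = 0.00396) and GMP (1.44, adjusted p = 0.000409) than in MEP. Cd2 was well above background on 4 of 17 arrays, all of the HSC subsets. Over the 17 genes, 12 were higher in CMP than in MEP and 0 lower, 7 were higher and 3 lower in GMP than in MEP, and 4 were higher and 0 lower in CMP than in GMP, where 16.7%, 17.4% and 4.77% of all probes were called in turn. Between the HSC subsets 0 of 17 were called from LT-HSC to ST-HSC, 1 from ST-HSC to MPP (Lck, -1.97, adjusted p = 0.000686) and 2 from LT-HSC to MPP (Csk and Inpp5d, -0.75 and -0.73), where 3.34%, 2.02% and 7.26% of all probes were called, so these counts are near the background.

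The genes most like Cd48 A_51_P362029 over the 17 arrays included Fut7 and Bin1 (Pearson r of 0.98 each), both with their highest mean in CMP and their lowest in MEP. Fut7 is a fucosyltransferase that acts in leukocyte homing. Those most like Cd244 A_51_P205209 were Pdgfrb, Kctd1 and 1700025G04Rik (each 0.98), highest in MPP and lowest in MEP. Like the Slamf1 values, these describe arrays that share populations and scanning periods.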

How the data were processed

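The 6 sorted populations were hybridized to 17 single-color Agilent arrays. The authors deposited scanner output, in which the intensity of each spot is background-subtracted and detrended but not yet normalized across arrays, and a table of quantile-normalized log2 values that served only as an alternative. Probe positions are on mm9, the build named in the file headers of periods 2 and 3, from which they were taken. The headers of period 1 name mm7.

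The log2 of each intensity was quantile normalized across arrays with limma 3.58.1 (R 4.3.3). After removal of 1639 control spots and of outlier spots, 161 probe values were missing, and repeated spots were averaged. All 41174 probes were fitted with 1 mean per population by lmFit and eBayes, and p-values adjusted by Benjamini-Hochberg at 0.05. Every adjusted p in the report is from limma. Beyond pools of mice the origin of the replicates is not stated, so p-values measure the spread between these arrays, whose number limits the precision.

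Where every array of a population read a probe near background, its fold is a lower bound, set on each array against the lowest signal well above background or the probe's own signal, whichever was higher. The members, gene lists, tests and alternatives were chosen with earlier results of these data known. The fit was tested on simulated data. All SLAM probes were named. A few marker and comparison genes are not reported here, and the marker lists were computed without them. Alternatives were normexp background correction (offset 50), scaling to the 75th percentile, the authors' table, a filter for probes well above background on at least 3 arrays, blocks for scanning period, slide or replicate number, 1 probe per gene name, removal of both LT-HSC arrays, and removal of single arrays.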

Additional observations from a re-analysis of the deposited data

How the results depend on the processing

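Of the 51 called SLAM results, 27 kept their call under every alternative that could be fitted and with each array left out. With normexp background correction the SLAM probes called were 3 from ST-HSC to MPP, 2 from CMP to GMP and 5 from GMP to MEP, and 5 in the last with the authors' table. With the 75th percentile they were 3 from LT-HSC to ST-HSC (684 of all probes) and 4 from ST-HSC to MPP, and 7139 of all probes were called from LT-HSC to MPP. Without dim probes, 795 were called from LT-HSC to ST-HSC and 1903 from LT-HSC to MPP. With scanning period as a block, SLAM calls were 5 between HSC subsets and myeloid populations (5970 of all probes) and 8 from LT-HSC to ST-HSC (3629), and all calls 1505 from ST-HSC to MPP, 6139 from LT-HSC to MPP, 3437 from CMP to GMP and 10537 from CMP to MEP. Cd48 A_51_P362029 then turned to -0.091 between HSC subsets and myeloid populations (limma adjusted p = 0.888). With slide as a random block, SLAM calls were 3 from LT-HSC to ST-HSC (502 of all probes) and 5 from LT-HSC to MPP (1155), and all calls 1299 from ST-HSC to MPP and 3034 from CMP to GMP. The cause of each of these was not tested.

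With the replicate number as a block, over the numbered arrays and so without LT-HSC, 4 SLAM probes were called from ST-HSC to MPP (Slamf6 A_52_P45563, Slamf8 and Slamf9 were not), and Slamf7 A_52_P261262 turned to -0.060 between HSC subsets and myeloid populations (limma adjusted p = 0.867). Arrays of the same number correlated in their deviations at 0.130 to 0.521 within a scanning period and -0.058 to 0.006 between periods. Within a period, arrays of different numbers correlated at 0.089 to 0.326, and pairs with an unnumbered or pooled array at -0.171 to 0.668. The labels do not say what a number marks, and arrays of the same number correlated only within a period. The numbers were therefore used as a block in an alternative and not as pairs in the main fit.

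With 1 array left out, SLAM calls ranged from 3 to 5 (785 to 4738 of all probes) from LT-HSC to ST-HSC, 3 to 7 (501 to 953) from ST-HSC to MPP, 6 to 9 (1397 to 6177) from LT-HSC to MPP, 1 to 5 (1117 to 2195) from CMP to GMP, 10 to 12 from CMP to MEP, 6 to 9 from GMP to MEP and 7 to 9 between HSC subsets and myeloid populations. No called SLAM difference changed sign among them, while some uncalled ones near 0 did, such as Slamf1 A_52_P550173 from LT-HSC to ST-HSC (-0.66 to 0.59). Both LT-HSC arrays on 1 slide, 1 of them dim, limit every value of LT-HSC, and low probes have only bounds.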
